A study of Mus musculus with 6 samples.

Results

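Goblet-associated secretory genes were followed by RNA-seq in Paneth cells sorted from mice. The 7 genes were Spink4, Agr2, Tff3, Muc2, Fcgbp, Clca1 and Zg16, out of 55414 gene identifiers in the count table. They were taken by name from a list of goblet-associated genes. Of these, 2 genes (Spink4 and Agr2) are also made by Paneth cells and form the Paneth-shared class, and the other 5 form the goblet-restricted class. All 7 passed the filter on low counts, as did 9749 genes in total. The cells came from the small intestine of WT mice, of the C57BL/6J strain in the methods of the study, and no age was given. The standard group (3 libraries) ate standard chow and the zinc depleted group (3 libraries) ate zinc depleted chow, in both cases for 7 weeks. Every mouse in both groups had received TNF 3 hours before sampling, so an untreated state was not analysed here.

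Goblet cells and Paneth cells are both secretory cells of the intestinal epithelium and arise from a common secretory progenitor. Goblet cells release mucus, whose scaffold is the gel-forming mucin MUC2, together with small proteins that bind, process or stabilise it. Paneth cells lie at the crypt base and release granules with antimicrobial proteins. Both cell types need a large endoplasmic reticulum to fold disulfide-rich proteins, and some secretory genes are active in both.

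Promoter sequence was at hand for 3 of the 7 genes, from the RefSeq promoter table (source build GRCm38.p6). All 3 are shown. Muc2 and Fcgbp varied together across libraries, as given below, while Agr2 varied otherwise. The part of promoter motifs in these profiles was not tested. The 250 bases before each RefSeq start were matched to GRCm39, where each occurred once on its chromosome, on the plus strand. They lie at chr7:141276333-141276582 (Muc2), chr7:27770411-27770660 (Fcgbp) and chr12:36042674-36042923 (Agr2), where the Agr2 window reaches into the GENCODE gene, which starts at 36042904. Capitals mark matches to an E-box (CAGCTG) and to the GATA motif in its forms AGATAA and, with another first base, TGATAA. Both strands were searched.
Muc2: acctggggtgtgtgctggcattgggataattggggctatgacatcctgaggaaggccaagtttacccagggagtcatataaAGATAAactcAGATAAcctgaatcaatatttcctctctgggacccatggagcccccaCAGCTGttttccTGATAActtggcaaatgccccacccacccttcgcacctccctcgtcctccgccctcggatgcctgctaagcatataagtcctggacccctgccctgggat
Fcgbp: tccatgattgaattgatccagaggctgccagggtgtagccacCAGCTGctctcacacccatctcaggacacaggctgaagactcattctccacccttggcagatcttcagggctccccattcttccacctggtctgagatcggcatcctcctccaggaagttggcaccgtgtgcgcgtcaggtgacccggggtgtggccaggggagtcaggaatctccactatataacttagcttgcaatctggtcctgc
Agr2: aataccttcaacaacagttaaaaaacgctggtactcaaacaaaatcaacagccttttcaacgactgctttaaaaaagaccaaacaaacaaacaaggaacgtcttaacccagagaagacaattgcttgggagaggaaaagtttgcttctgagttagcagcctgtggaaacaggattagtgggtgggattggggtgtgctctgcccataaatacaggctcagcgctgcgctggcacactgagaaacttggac
The Muc2 window held 1 CAGCTG and 3 GATA matches, and the Fcgbp window held 1 CAGCTG and 0 GATA matches. The Agr2 window held 0 of either. Other spellings of the E-box were not searched. Among 32851 promoters of the same length, 13% held this E-box and 16.6% held a GATA match. A FOXA motif, spelled TGTTTAC with the variant form TGTTTGC, was found in 7.29% of promoters and in 0 of these 3 windows.

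The libraries held between 6139397 and 12772373 counts, and 3 counts, the limit that a count of 0 allows, stood for 0.235 to 0.489 CPM (counts scaled to a common library total). TMM scaling factors, which correct for a few genes taking up a large share of the reads, ran from 0.460 to 1.73, so values scaled by the total and by TMM differ widely here. All 10 Paneth markers were counted in every library, with a summed level of 421546 to 499410 CPM on standard diet and 473795 to 567075 CPM on zinc depleted diet. Summed levels of 4 other marker lists were lower in the zinc depleted group without overlap. They were 53.4 to 243 against 36.6 to 47.0 CPM for enterocytes (5 of 10 markers counted in every library), 36.1 to 116 against 25.0 to 35.9 CPM for enteroendocrine cells (3 of 10, Nts at 0), 1281 to 4080 against 539 to 762 CPM for stem cells (7 of 8) and 106 to 248 against 45.4 to 77.5 CPM for proliferation (8 of 8). In CPM, 10.3% of all tested genes were lower in this way and 0.554% higher, and with TMM scaling 0 of the lists were lower without overlap. The tuft list (8 of 10) lay at 36.0 to 992 and 46.0 to 243 CPM, and the immune list (2 of 10, Cd3e at 0) at 73.5 to 157 and 66.3 to 92.6 CPM. The part of these cell types in the results was not tested.

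The first question was how much RNA of each gene the sorted cells held. To compare genes, counts were divided by the length of the canonical transcript and rescaled to the same sum as CPM in each library. This takes counts to rise in proportion to transcript length, which was not tested. On this length-scaled level Spink4 ranked first, with a mean of 5935 over the 6 libraries, followed by Tff3 (899), Agr2 (505), Muc2 (64.1), Fcgbp (15.2), Zg16 (13.1) and Clca1 (4.48). The abundant Paneth product Defa24, an alpha-defensin, stood at 369619 on the same scale, Lyz1 (lysozyme) at 79173 and Mmp7, which activates pro-defensins, at 3396. By these means Spink4 lay above Mmp7, and the small factor Tff3 ranked above the Paneth-shared Agr2. In CPM, Mmp7 was above Spink4 in standard replicate 2 (4741 against 4736) and zinc depleted replicates 2 and 3 (6605 and 7249 against 4645 and 4025). It was below Spink4 in the other libraries. The length-scaled order of Spink4 and Mmp7 was not compared library by library. The length-scaled order Spink4, Tff3, Agr2, Muc2 was the same in all 6 libraries. It depended on the division by length, since in mean CPM Muc2 (1316) lay above Tff3 (695) and Agr2 (630). Tff3 and Agr2 came close in zinc depleted replicate 3, with length-scaled levels of 762 and 754. Zg16 lay above Fcgbp in standard replicate 3 and zinc depleted replicates 2 and 3 and below it in the other 3 libraries, so these neighbours had no fixed order. Clca1 was last in every library, although its range (0.147 to 13.5) overlapped that of Zg16 (3.47 to 29.2).

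**Figure D1:**
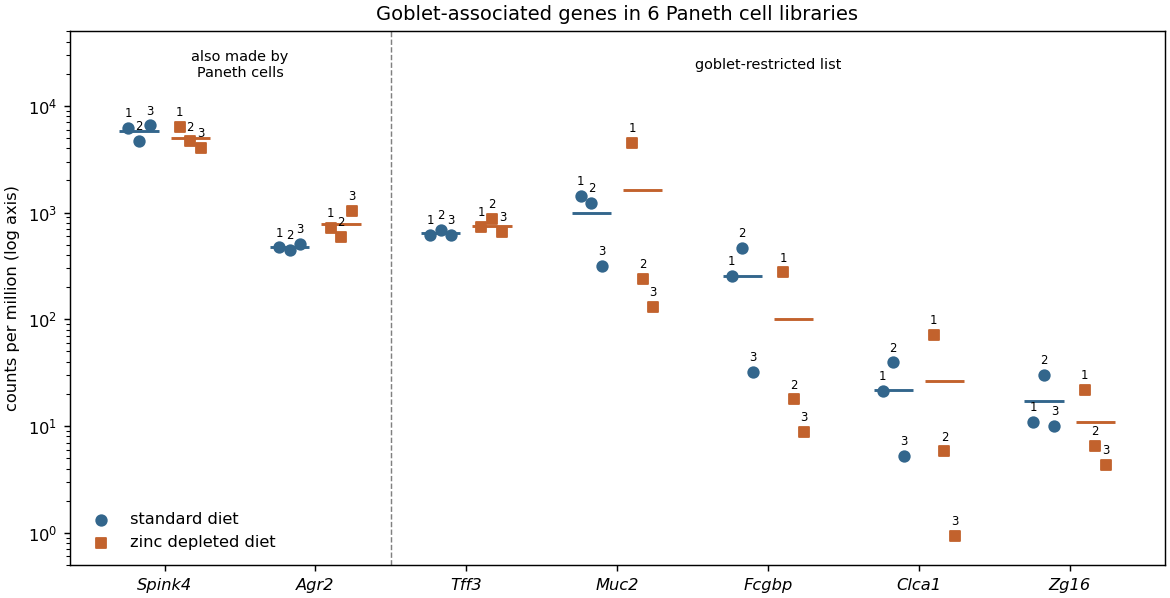
CPM (log axis) of the 7 genes in each library, with circles for standard diet, squares for zinc depleted diet, replicate numbers above the points and a line at each group mean. Spink4, Agr2 and Tff3 stay within 2.31-fold in CPM across the 6 libraries, while Muc2, Fcgbp and Clca1 spread over 34.8- to 76.7-fold in CPM.

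Spink4 encodes a small secreted protein of the Kazal protease inhibitor family. The gene lies at chr4:40920044-40931396 in GRCm39, with 5 exons and a canonical transcript of 588 bases. It had 6190, 4736 and 6560 CPM in standard replicates 1 to 3 and 6393, 4645 and 4025 CPM in zinc depleted replicates 1 to 3. The group values overlapped, with means of 5829 ± 964 and 5021 ± 1228 CPM (SD, n = 3 each). The highest library stood 1.63-fold above the lowest, and 96.8% of the tested genes had a wider range in CPM. With TMM scaling the range was 2.78-fold, and 48.3% of tested genes had a larger SD of log2 CPM. The log2 fold change (zinc depleted over standard, TMM-scaled, edgeR quasi-likelihood test) was 0.54 with an SE of 0.58 and an adjusted p of 0.794. Scaled by total counts alone the value was -0.22, where the median of all tested genes was -0.66, so the sign of the Spink4 value depended on the scaling while it stayed above that median. It was 1.06 without standard replicate 3.

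Agr2 encodes a protein disulfide isomerase of the endoplasmic reticulum that helps to fold mucins. It lies at chr12:36042904-36054086, with 8 exons and a canonical transcript of 786 bases. It had 472, 449 and 506 CPM on standard diet and 724, 592 and 1038 CPM on zinc depleted diet, so all 3 zinc depleted libraries lay above all 3 standard libraries. The means were 476 ± 28.8 and 785 ± 229 CPM (SD, n = 3 each). Of the 7 genes, Agr2 was the 1 whose groups did not overlap in this direction, against 0.554% of all tested genes, and 0 of the 7 were without overlap in the lower direction, against 10.3%. With TMM scaling the groups overlapped, at 273, 298 and 564 against 496, 926 and 2259 scaled CPM. The log2 fold change was 1.70 with an SE of 0.61, and the edgeR p of 0.0179 became 0.681 after adjustment over all tested genes. The value was 0.95 without zinc depleted replicate 3 and 0.72 with total counts only. An unadjusted p under 0.05 with a higher level was found for 2.58% of tested genes and for 1 of the 7 (Agr2), and with a lower level for 4.03% of tested genes and 0 of the 7. The longest length class of mRNAs moved against the shortest across the same libraries (given below), and Agr2 belongs to the shortest. The part of transcript length in its difference was not tested.

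Tff3 encodes trefoil factor 3, a small secreted peptide that protects and repairs the mucosa. It lies on the minus strand at chr17:31344280-31348620, with 3 exons and a canonical transcript of 493 bases, the shortest of the 7. It had 614, 683 and 621 CPM on standard diet and 728, 866 and 658 CPM on zinc depleted diet. The zinc depleted replicate 3 fell within the standard range, so the groups overlapped, with means of 640 ± 37.9 and 751 ± 105 CPM (SD, n = 3 each). Its 1.41-fold range in CPM was the narrowest of the 7 genes, and 99.1% of tested genes had a wider one. With TMM scaling it spanned 4.02-fold, wider than Spink4 and Zg16, and 24.0% of tested genes had a larger SD of log2 CPM. Its log2 fold change was 1.13 with an SE of 0.53 and an edgeR adjusted p of 0.681, and it was 0.23 with total counts only.

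Muc2 encodes the gel-forming mucin of the intestine. It lies at chr7:141276583-141308430, with 48 exons and a canonical transcript of 13916 bases, the longest of the 7. It had 1445, 1233 and 317 CPM on standard diet and 4532, 239 and 130 CPM on zinc depleted diet. The zinc depleted group held both the highest and the lowest library, and the standard group alone spanned 4.56-fold. The means were 998 ± 600 and 1634 ± 2511 CPM (SD, n = 3 each), with an SD larger than the mean under zinc depletion. Only 4.19% of tested genes had a wider range in CPM than the 34.8-fold of Muc2. The log2 fold change was 0.91 with an SE of 0.83 and an edgeR adjusted p of 0.757, and it was -1.01 without zinc depleted replicate 1. In such bulk samples, fewer cells of a type and less RNA per cell cannot be told apart, so Muc2 reads cannot be assigned to Paneth cells or to goblet cells.

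Fcgbp encodes a large mucus protein with repeated von Willebrand domains that associates with MUC2. It lies at chr7:27770661-27820287, with 20 exons and a canonical transcript of 7928 bases. It had 257, 468 and 32.4 CPM on standard diet and 275, 17.8 and 8.85 CPM on zinc depleted diet. The highest libraries were again standard replicates 1 and 2 and zinc depleted replicate 1, as for Muc2, and the means were 253 ± 218 and 100.5 ± 151 CPM (SD, n = 3 each). Its log2 fold change was -1.07 with an SE of 0.88 and an edgeR adjusted p of 0.736. It was -2.80 without zinc depleted replicate 1 and -0.23 without standard replicate 2. Of the 75-base stretches of its transcript, 96.0% occurred in no other gene, and 316 of 7854 were shared with Fcgbpl1. For the other 6 genes all stretches of this length were specific.

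Clca1 encodes a secreted metalloprotease that processes mucus. It lies on the minus strand at chr3:144709578-144738537, with 14 exons and a canonical transcript of 3655 bases. It had 21.4, 39.4 and 5.21 CPM on standard diet and 72.1, 5.79 and 0.939 CPM on zinc depleted diet, the lowest value resting on 12 counts. Its 76.7-fold range was the widest of the 7 genes, and the groups overlapped, with means of 22.0 ± 17.1 and 26.3 ± 39.7 CPM (SD, n = 3 each). The log2 fold change was 0.47 with an SE of 0.87 and an edgeR adjusted p of 0.880, and it was -1.42 without zinc depleted replicate 1.

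Zg16 encodes a lectin-like mucus protein that binds bacterial surfaces. It lies on the minus strand at chr7:126649302-126686500, with 4 exons and a canonical transcript of 708 bases. It had 10.9, 29.97 and 10.1 CPM on standard diet and 21.7, 6.46 and 4.31 CPM on zinc depleted diet. Standard replicate 2 was the highest, zinc depleted replicate 1 the next, and the groups overlapped, with means of 17.0 ± 11.2 and 10.8 ± 9.49 CPM (SD, n = 3 each). Its log2 fold change was -0.11 with an SE of 0.46 and an edgeR adjusted p of 0.947.

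In edgeR, 0 of the 7 genes passed the adjusted threshold, and so did 0% of the 9749 tested genes, of which 645 had an unadjusted p under 0.05. DESeq2 called 0.0338% of the genes it tested and 0 of the members to which it gave a p. It gave no p for Muc2. Log2 fold changes were above 0 for 5 members and below 0 for 2, with a median of 0.54 against 0.00 over all tested genes. The median was 0.61 over tested coding genes with transcripts under 1000 bases, the class of Spink4, Agr2, Tff3 and Zg16. It was -0.09 for the class of Clca1, and -0.14 for 6000 bases and over, the class of Muc2 and Fcgbp. The part of transcript length in the member median was not tested. In this TMM-scaled fit the Paneth reference genes had 1.21 (Defa24, SE 0.91), 1.16 (Lyz1, SE 0.86) and 1.32 (Mmp7, SE 0.65). Tff3 (1.13) lay close to these values, Spink4 (0.54) below them and Agr2 (1.70) above them. Scaled by total counts alone, 4 members were above 0 and their median was 0.23, while that of all tested genes was -0.66.

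**Figure D2:**
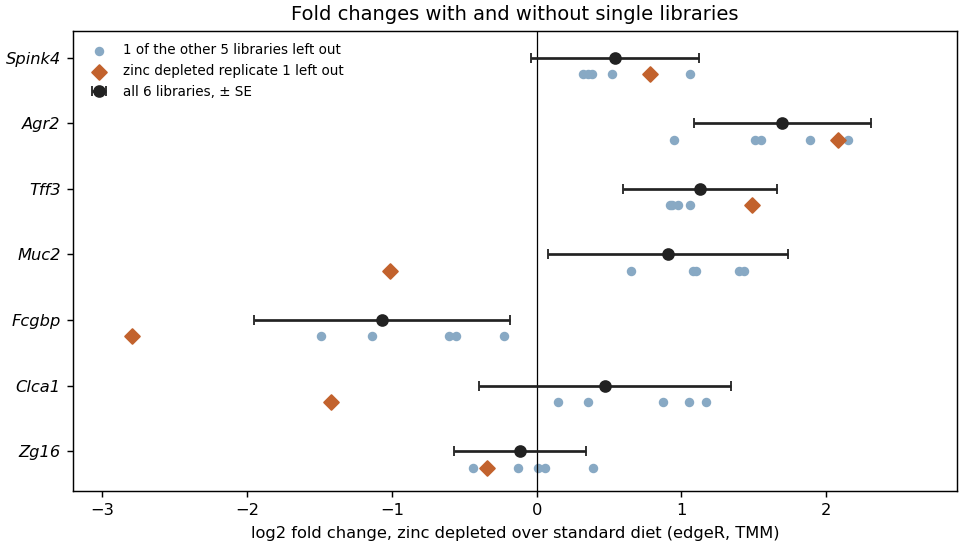
Log2 fold change of each gene, zinc depleted over standard diet, with all 6 libraries (black, ± SE) and with 1 library left out (blue points, or an orange diamond where zinc depleted replicate 1 is left out). Leaving out that library moves Muc2 from 0.91 to -1.01 and Clca1 from 0.47 to -1.42.

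The next question was whether the goblet-restricted genes behaved as a unit that could be set apart from the Paneth-shared genes in each library. The 5 goblet-restricted genes took 0.235, 0.245 and 0.0986% of all counts on standard diet and 0.563, 0.113 and 0.0803% on zinc depleted diet. The means were 0.193 ± 0.0819% and 0.252 ± 0.270% (SD, n = 3 each), and the groups overlapped. Counting error was small beside this spread, the widest Wilson 95% interval reaching 0.00466 percentage points to either side. The Paneth-shared genes took 0.666, 0.519 and 0.707% on standard diet and 0.712, 0.524 and 0.506% on zinc depleted diet, so they outweighed the goblet-restricted genes in every library, mostly through Spink4.

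The makeup of the goblet-restricted sum changed from library to library. Muc2 provided 61.5, 50.3 and 32.1% of it on standard diet and 80.5, 21.0 and 16.2% on zinc depleted diet. Tff3 provided 26.2, 27.8 and 63.0% and then 12.9, 76.3 and 82.0%. In the 3 libraries with a low sum, Tff3 was thus the main component, and in the others Muc2 was. Without Tff3 the sum was 0.173, 0.177 and 0.0365% on standard diet and 0.490, 0.0269 and 0.0144% on zinc depleted diet. The gap between the 3 high and the 3 low libraries was thus wider for the other 4 genes than for the sum with Tff3.

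**Figure D3:**
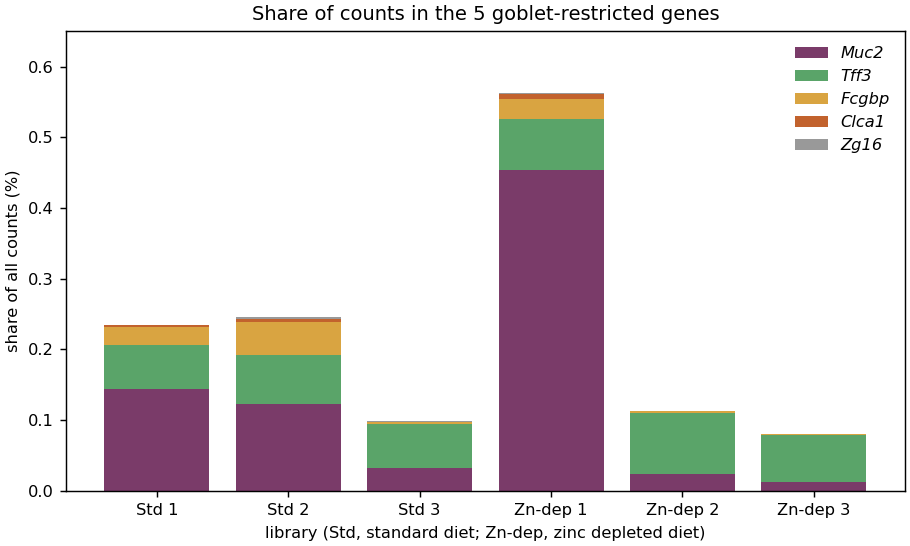
Share of all counts (%) held by the 5 goblet-restricted genes in each library, stacked by gene. Muc2 makes up 80.5% of the tall bar of zinc depleted replicate 1, whereas Tff3 makes up 63.0 to 82.0% of the 3 short bars.

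Profiles over the 6 libraries were compared as log2 CPM (TMM) minus the mean of the gene, and their distance as the root mean square difference over the 6 libraries. These are descriptions over libraries of both diets. Tff3 was nearest to Spink4 (0.37) and Agr2 (0.43) and far from Muc2 (1.78), Clca1 (2.05) and Fcgbp (2.23), although it was listed as goblet-restricted. Muc2 lay close to Clca1 (0.63) and Fcgbp (0.93), and Fcgbp and Clca1 were 0.76 apart. Zg16 was 0.87 from Spink4, 0.98 from Tff3 and 1.24 from Agr2. It was 1.09 from Muc2, 1.24 from Clca1 and 1.37 from Fcgbp. Zg16 was thus nearest to Spink4, but farther from Spink4, Agr2 and Tff3 than these were from each other (at most 0.60). By these distances Spink4, Agr2 and Tff3 lay together, and so did Muc2, Fcgbp and Clca1. The difference in spread between these sets was smaller with TMM scaling, where the range over the 6 libraries was 2.78-fold for Spink4, 8.26-fold for Agr2 and 4.02-fold for Tff3, against 11.0-fold for Muc2, 16.2-fold for Fcgbp and 24.2-fold for Clca1.

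These 6 genes also differed in transcript length. Spink4, Agr2 and Tff3 have canonical transcripts of 493 to 786 bases, and Muc2, Clca1 and Fcgbp of 3655 to 13916 bases. Over all tested coding genes, the median centred log2 CPM of transcripts under 1000 bases (n = 418) was -0.34, -0.29 and 0.04 on standard diet and -0.85, 0.51 and 1.04 on zinc depleted diet. For transcripts of 6000 bases and over (n = 1599) it was 0.28, 0.23 and -0.08, then 0.52, -0.18 and -0.55. Long and short transcripts thus moved in opposite directions across libraries, long ones being higher in the same 3 libraries as Muc2, Fcgbp and Clca1. The centred values of Muc2 covered a wider span, at 0.35, 0.32 and -0.89, then 2.24, -0.81 and -1.21. Those of Tff3 were -0.96, -0.60 and 0.004, then -0.47, 0.97 and 1.05. They had the sign of the short-class median in every library, though only just in standard replicate 3. In CPM Tff3 stayed within 1.41-fold. A gene flat in CPM would show these signs from the TMM factors alone, whatever its length. Zg16, at 708 bases as short as the first set, did not follow the short class, with -0.81, 0.81 and 0.01, then 0.40, -0.15 and -0.26. The part of transcript length in the member profiles was not tested. In CPM without TMM scaling, the tuft marker list was highest in the same 3 libraries as Muc2, Fcgbp and Clca1. It had 223, 992 and 36.0 CPM on standard diet and 243, 100 and 46.0 CPM on zinc depleted diet. Standard replicates 1 and 2 and zinc depleted replicate 1 also had the largest TMM factors (1.726, 1.505 and 1.458). The member profiles above are TMM-scaled, and the order of the list was not compared on that scale. The enterocyte list had 192, 243 and 53.4 CPM, then 46.3, 36.6 and 47.0. The part of these cell types in the member profiles was not tested.

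**Figure D4:**
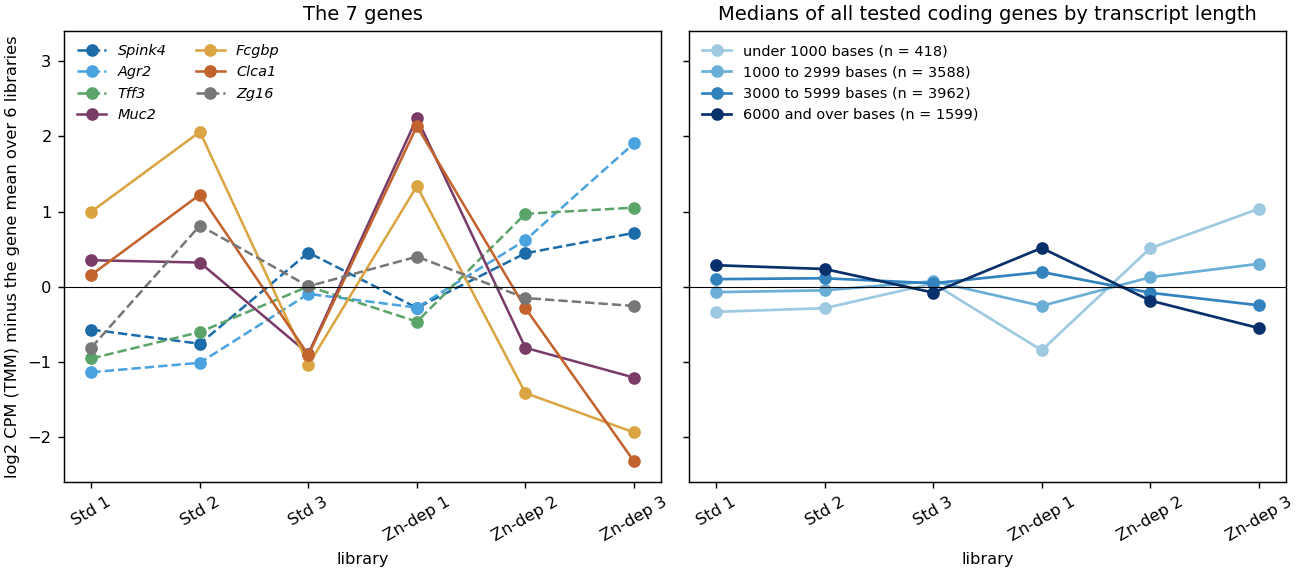
Left, log2 CPM (TMM) of each gene minus its own mean, by library (Std, standard diet, and Zn-dep, zinc depleted diet), with solid lines for Muc2, Fcgbp and Clca1. Right, the medians of all tested coding genes in 4 classes of transcript length, where the longest class is highest (0.52) and the shortest lowest (-0.85) in zinc depleted replicate 1.

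Among 6475 genes searched outside the members, the profiles nearest to the goblet-restricted sum were those of Rbm28 (0.15), Ubr2 (0.17), Sec16a (0.19), Slc25a22 (0.19) and Chst15 (0.20). Their canonical transcripts run from 2846 to 8749 bases. Those nearest to Spink4 were Rrp9 (0.05), Nt5c3 (0.08), Blzf1 (0.10), Memo1 (0.11) and Wdr45b (0.12), of 1611 to 4034 bases.

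Ratios within a library do not depend on the scaling between libraries. For every 100 reads of Spink4 there were 7.62, 9.48 and 7.71 reads of Agr2 on standard diet and 11.3, 12.7 and 25.8 on zinc depleted diet. The groups did not overlap, and the mean log2 ratio was 0.91 higher under zinc depletion (-3.60 ± 0.18 against -2.69 ± 0.64, SD, n = 3 each). Of the genes outside the members, 1.37% had a ratio to Spink4 that was higher under zinc depletion without overlap. Tff3 per 100 Spink4 reads was 9.92, 14.4 and 9.47, then 11.4, 18.6 and 16.4, with overlap. The goblet-restricted sum per 100 Spink4 reads was 37.9, 51.8 and 15.0, then 88.1, 24.4 and 19.9, also with overlap and with a log2 difference in means of 0.18.

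Within the mucus genes, Fcgbp was compared with the mucin it associates with. There were 17.8, 38.0 and 10.2 reads of Fcgbp per 100 reads of Muc2 on standard diet and 6.07, 7.45 and 6.79 on zinc depleted diet. The 3 zinc depleted libraries were the lowest and close to each other, although their Muc2 levels spanned 34.8-fold. The mean log2 ratio was -2.39 ± 0.95 on standard diet and -3.89 ± 0.15 on zinc depleted diet (SD, n = 3 each). Of the genes outside the members, 3.8% had a ratio to Muc2 that was lower under zinc depletion without overlap. Clca1 per 100 Muc2 reads was 1.48, 3.20 and 1.64, then 1.59, 2.42 and 0.721, which overlapped, as did the ratio of Tff3 with 42.5, 55.4 and 196, then 16.1, 363 and 505. These ratios to Muc2 were chosen after the values had been seen.

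Other genes of the mucus pathway were taken from 4 lists, and 0 members of any list passed the adjusted threshold in edgeR. The counts below at an unadjusted p under 0.05 stand beside 2.58% (higher) and 4.03% (lower) of all tested genes. Among other goblet products (18 of 22 tested), 5 had an unadjusted p under 0.05 with a higher level and 1 with a lower level, with a median log2 fold change of 0.13. The highest of them per length were Ccl6, a chemokine, Guca2a, which encodes the hormone guanylin, and Lypd8, an antibacterial surface protein. Ccl6 had 1992, 1519 and 1427 CPM, then 1640, 878 and 1220. Its mean CPM was lower on zinc depleted diet (1246 against 1646), while its TMM-scaled log2 fold change was 0.46 (SE 0.51). The direction for Ccl6 thus differed between the scalings. Retnlb, an antibacterial resistin-like protein, had 83, 38 and 99 counts on standard diet and 88, 104 and 713 on zinc depleted diet, and its value of 2.78 (SE 0.88, edgeR adjusted p 0.681) was 0.95 without zinc depleted replicate 3 (adjusted p 0.862). Nlrp6, a sensor linked to mucus release, had 618, 201 and 42 counts on standard diet and 34, 21 and 9 on zinc depleted diet. Its groups did not overlap in CPM, as was the case for 10.3% of all tested genes in this direction. The log2 fold change was -3.21 with an SE of 0.75. With 1 library left out it ranged from -3.66 (without standard replicate 3) to -2.28 (without standard replicate 1, the library with 618 counts). With all 6 libraries the adjusted p was 0.681 with edgeR and 0.0137 with DESeq2. The mucins Muc5ac and Muc5b, typical of stomach and airway and named here after their values were seen, had 0 counts in all 6 libraries.

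Among enzymes of mucin glycosylation (16 of 19 tested), 2 had an unadjusted p under 0.05 with a higher level and 0 with a lower level, and the median log2 fold change was 0.28. C1galt1, which builds the core of mucin O-glycans, had 328, 261 and 670 counts on standard diet and 1530, 382 and 501 on zinc depleted diet (1.07, SE 0.47, edgeR adjusted p 0.681). In CPM it had 44.7, 42.5 and 67.2, then 153, 51.4 and 39.2, so the groups overlapped and zinc depleted replicate 3 was the lowest. With total counts only its log2 fold change was 0.66. The highest levels per length belonged to its chaperone C1galt1c1 (72.7 to 90.4 CPM in all libraries), Galnt12 and Gcnt3. Among genes of secretory folding (8 of 8 tested), 0 had an unadjusted p under 0.05 in either direction, and the median was 0.41. Xbp1, a regulator of the unfolded protein response, had 212, 214 and 276 CPM, then 566, 176 and 162. In CPM it was highest in zinc depleted replicate 1, the library with the most Muc2. In this list Ern2, Creb3l1 and Pdia5 were also highest there, and Creb3l4, Pdia6, Tmed3 and Agr3 in standard replicate 1.

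Among transcription factors of the secretory lineage (8 of 8 tested), 0 had an unadjusted p under 0.05 with a higher level and 1 with a lower level. That gene was Foxa2, with 61, 55 and 15 counts on standard diet and 19, 6 and 0 on zinc depleted diet (-2.20, SE 0.83, edgeR adjusted p 0.681). Spdef, needed for goblet and Paneth cell maturation, had 43.9, 50.7 and 55.2 CPM, then 116, 26.4 and 17.7, and Atoh1, which commits cells to the secretory lineage, had 39.9, 55.4 and 11.6, then 24.4, 9.82 and 4.85. The third of the highest per length was Foxa3, at 14.5 to 48.9 CPM. Scaled by total counts alone, the medians of the 4 lists were -0.36, -0.26, -0.27 and -0.50 in the order given, against the -0.66 of all tested genes.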

How the data were processed

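RNA-seq libraries of FACS-sorted Paneth cells were analysed, with 3 per diet in the labels (the design text speaks of 4 replicates). The authors deposited raw counts per gene. Per the labels, single-end AVITI reads were handled with Trimmomatic 0.39, STAR 2.7.10a and mm39. Which program counted reads, and how it handled strand and reads matching several genes, is not given in the sources used here. Genes were named and placed by identifier with GENCODE M39 on GRCm39 (54749 of 55414 found). The members and lists were chosen with earlier results of these data known.

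Counts were tested with the edgeR 4.0.16 quasi-likelihood F test (R 4.3.3, TMM, filterByExpr, diet as the only term, two-sided, Benjamini-Hochberg adjustment over 9749 genes, threshold 0.05). The SE is the absolute log2 fold change over √F. The procedure was tested on simulated data. Log2 CPM used a prior count of 2. Shares have Wilson 95% intervals, which, as does the limit of 3 counts where 0 were seen, allow for counting error alone. The design text calls the replicates biological, and every pair of libraries differed by more than sampling noise (chi-square per degree of freedom 15.3 to 168).

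All members, Defa24, Lyz1 and Mmp7 were named. From each further list, the 3 genes highest per length and the gene with the smallest unadjusted p under 0.05 in each direction were named, together with genes past the adjusted threshold, as were the 5 profiles nearest to the goblet-restricted sum and to Spink4 (mean log2 CPM of at least 2). Alternatives were DESeq2 1.42.0, limma-voom (limma 3.58.1), other scalings, no low-count filter, a replicate block and leaving out each library. The sum without Tff3 was added after seeing the data.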

Additional observations from a re-analysis of the deposited data

How the results depend on the processing

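No member passed the adjusted threshold under any alternative, and the adjusted p of the members ran from 0.117 to 1. Agr2 and Tff3 were higher and Fcgbp lower in all alternatives run. The number of genes called was 0 in the edgeR test as reported (645 at an unadjusted p under 0.05), 6 with DESeq2, 76 without the low-count filter, and 0 to 28 when 1 library was left out (28 without standard replicate 3). Spink4 turned to -0.22 with total counts only, which shifted all genes downwards. Clca1 turned to -0.19 with limma-voom and to -0.33 with the replicate block, and Zg16 to 0.032 with limma-voom. With 1 library left out, Muc2 ranged from -1.01 to 1.43, Clca1 from -1.42 to 1.17 (both lowest without zinc depleted replicate 1) and Zg16 from -0.44 to 0.39. Of 142 alternatives for named genes, 129 kept direction and side of the threshold and 9 reversed, and 4 passed it: Retnlb without the filter (edgeR adjusted p 2.895e-05), and Nlrp6 with DESeq2 (0.0137), without the filter (4.351e-07) and without standard replicate 3 (0.0333). The causes were not tested.

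The replicate block called 0 genes, with 962 at an unadjusted p under 0.05 against 645 without it. Deviations of same-numbered libraries correlated at 0.147, -0.0584 and 0.248, and standard replicate 2 correlated best with zinc depleted replicate 1 (0.2504), so the numbers were not taken to pair the samples. The difference in the goblet-restricted share (0.0592 percentage points) was -0.00428 without Muc2 and -0.0961 to 0.145 with 1 library left out. The log2 difference relative to Spink4 (0.18) was -0.73 relative to Agr2, -0.62 without Tff3 and -0.49 to 0.58 with 1 library left out. With 3 libraries per group these spreads limit what can be detected, and the lowest count was 12 for Clca1 and 48 for Zg16.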
